A study of Mus musculus with 16 samples.

Results

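The 7 genes described here belong to the SPARC family and to the follistatin-like proteins: Sparc, Sparcl1, Smoc1, Smoc2, Spock2, Fstl1 and Fstl3. They were taken by symbol from a table of 24982 gene entries in 16 libraries of mouse left ventricle. They were chosen by their measured genotype values, because Smoc2 stood higher in the knockout mice while most fibroblast genes stood lower. Genotype differences of the 7 genes are therefore given as a description, with no test.

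Each library came from the total RNA of 1 C57BL/6 left ventricle. The Tln2-null group (8 mice) was labelled null for Tln2, which encodes talin 2. The knockout group (8 mice) was Tln2-null; Tln1-specific CF knockout, that is, Tln2-null with Tln1 deleted in cardiac fibroblasts. Each group held 4 males and 4 females. Every mouse of both groups, Tln2-null controls included, had tamoxifen injections for 5 days. After a pause of 2 weeks, pumps delivered the pressor hormone angiotensin II (AngII) for 8 weeks. Thus all mice were labelled Tln2-null, and none was free of tamoxifen or AngII. The sources used here do not give the Cre driver, the deleted exons or the ages. Talins are adaptors that tie integrins to the actin cytoskeleton.

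The SPARC family are secreted matricellular proteins: they sit in the extracellular matrix and tune collagen assembly, adhesion and growth factor access without bearing load themselves. Sparc binds collagens and calcium and assists collagen handling after secretion, and in the heart it comes from fibroblasts and endothelium. Sparcl1 (hevin) is its closest relative, Smoc1 and Smoc2 are modular calcium-binding members that act on growth factor signals, and Spock2 (testican 2) is a matrix proteoglycan. Fstl1 and Fstl3 share the follistatin domain. Fstl3 binds and blocks activin and related ligands, whereas Fstl1 is a secreted glycoprotein of fibroblasts and other stromal cells with described actions on BMP signals.

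Sparc lies at chr11:55394500-55423183 on the minus strand and Sparcl1 at chr5:104079111-104113733, also minus (GENCODE M21, GRCm38). Smoc1 spans chr12:81026808-81186414, Smoc2 spans chr17:14279506-14404790 and Spock2 spans chr10:60106219-60135198, all plus. Fstl1 spans chr16:37776873-37836514 and Fstl3 spans chr10:79777272-79782630, both plus. All 7 are protein-coding. Exons of Fstl3 overlap those of Prss57 on the other strand over 1157 bases. Prss57 had at most 0.353 CPM (counts scaled to library size), against at least 4.93 CPM for Fstl3. 4930474M22Rik, an antisense transcript within the Smoc2 locus, had at most 0.0572 CPM.

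The promoters of Sparc and Fstl1 are shown because these 2 genes had the highest correlation among the 7, and that of Spock2 because clock genes were among the genes most like it. RefSeq promoters (GRCm38.p6, 250 bases before to 50 after a transcription start) were found for 4 of the 7 genes. The windows are chr11:55420031-55420330 for Sparc (minus strand), chr16:37776805-37777104 for Fstl1 and chr10:60106007-60106306 for Spock2 (both plus). The Sparc window lies within the gene as GENCODE M21 draws it, so other start sites exist. Capitals mark GGAGG, a purine-rich box, and CAGACA, a sequence that SMADs can bind, read on either strand and with overlapping matches counted.
Sparc: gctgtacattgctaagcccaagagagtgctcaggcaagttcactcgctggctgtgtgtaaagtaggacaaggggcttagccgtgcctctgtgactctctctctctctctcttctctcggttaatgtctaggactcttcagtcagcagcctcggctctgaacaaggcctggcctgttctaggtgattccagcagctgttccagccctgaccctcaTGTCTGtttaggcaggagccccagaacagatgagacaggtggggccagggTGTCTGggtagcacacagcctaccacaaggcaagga
Fstl1: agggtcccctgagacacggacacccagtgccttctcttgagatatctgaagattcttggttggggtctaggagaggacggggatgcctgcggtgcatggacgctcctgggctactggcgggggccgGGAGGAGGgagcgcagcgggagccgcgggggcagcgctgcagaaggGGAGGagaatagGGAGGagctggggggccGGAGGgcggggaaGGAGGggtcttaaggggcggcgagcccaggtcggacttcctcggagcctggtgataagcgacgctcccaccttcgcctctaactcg
Spock2: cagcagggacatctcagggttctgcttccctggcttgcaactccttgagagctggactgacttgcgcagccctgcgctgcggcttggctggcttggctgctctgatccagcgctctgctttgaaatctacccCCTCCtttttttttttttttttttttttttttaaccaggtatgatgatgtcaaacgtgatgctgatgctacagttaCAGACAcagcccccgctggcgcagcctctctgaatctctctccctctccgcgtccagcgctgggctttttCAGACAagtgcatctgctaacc

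The Fstl1 window held 6 matches to GGAGG, a number reached by 4.56% of the 32851 mouse promoters in the table, while 72.9% had at least 1. It held 0 matches to CAGACA. The Sparc window was the reverse, with 0 matches to GGAGG and 2 to CAGACA, the latter found 2 or more times in 3.03% of promoters and 1 or more times in 21% of them. Its bases were 55.3% G or C, against 66.7% for Fstl1 and a median of 52.7% over all promoters. Spock2 had 1 match to GGAGG and 2 to CAGACA. The canonical E-box CACGTG, the site class of clock activators, had 0 matches in the Spock2 window and at least 1 in 7.15% of promoters. These letters describe the windows and say nothing of what binds there.

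All 7 genes had counts in all 16 libraries and passed the filter on low counts, as did 13775 genes in all. Per kilobase of merged exon, Sparcl1 was highest with 219.8 ± 30.9 CPM per kb (mean ± SD, n = 16), followed by Sparc with 144 ± 36.7. Fstl1 had 37.2 ± 12.03 CPM per kb and Smoc2 had 17.1 ± 1.72. Spock2, with 4.35 ± 1.91, and Fstl3, with 4.33 ± 1.37 CPM per kb, could not be ranked against each other within that spread. Smoc1 was lowest with 0.989 ± 0.213 CPM per kb. On this scale the steps from Sparcl1 to Sparc, from Sparc to Fstl1 and from Fstl1 to Smoc2 were larger than the SDs of the genes beside them.

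The genes differed in how much they varied between mice. From the lowest to the highest library, Smoc2 spanned 1.49-fold and Sparcl1 1.62-fold in CPM. Sparc spanned 2.41-fold, Smoc1 2.56-fold, Fstl1 2.91-fold and Fstl3 4.06-fold. Spock2 spanned 7.04-fold. After removal of the genotype and sex means, the SD of log2 CPM was 0.08 for Smoc2 and 0.69 for Spock2, with the others between 0.22 (Sparcl1) and 0.41 (Fstl1).

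Total counts ran from 11161766 to 19221673 per library. Tln1 ran from 250.7 to 322 CPM in Tln2-null and from 221 to 323 CPM in knockout libraries, so whole-ventricle Tln1 did not separate the groups. Tln2 reads were present in every library (55.6 to 76.8 CPM), and since the deleted part of neither gene is given, these levels check no label. In Tln2-null replicate 8 and knockout replicate 8 the clock genes stood apart, with Arntl at 28.4 and 27.1 CPM against 3.66 to 8.44 in the other 14. In 4 females, 3 of them knockout, Y-linked reads exceeded 1% of the male mean. Cardiac fibroblast and endothelial markers were present in every library. Litters and handling days of the mice are not given in the labels used here, so SDs and p-values measure the spread between these libraries.

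Smoc2 was the member that stood higher in the knockout mice. Its level was 111.7, 116, 98.1, 110.3, 112, 118.6, 96.0 and 118.9 CPM in Tln2-null replicates 1 to 8. In knockout replicates 1 to 8 it was 119.5, 136.3, 126.9, 120.8, 142.9, 126.3, 122.1 and 120.3 CPM. Every knockout library lay above every Tln2-null library, but the gap between the highest of the one and the lowest of the other was small. The Tln2-null mean was 110.2 ± 8.73 CPM and the knockout mean 126.9 ± 8.50 CPM (SD, 8 mice a group). The log2 difference was 0.20 ± 0.05 (SE), or 1.15-fold. In edgeR's fit with genotype and sex, the median log2 difference of all 13775 genes was -0.00 and 51.2% of them were below 0.

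Smoc2 was the single gene of the 13775 with every knockout library above every Tln2-null library (0.00726%), and it was chosen for standing higher, so nothing is read from that share. In 5 genes (Igfbp4, Serpina3n, Adcy2, Ripor3 and Efcc1) every knockout library lay below. The separation of Smoc2 rests on the scaling. With the deposited normalized values the groups were also apart (at most 1961 in Tln2-null and at least 1967 in knockout). With CPM from total counts alone they overlapped, 4 of 8 knockout libraries being above the highest Tln2-null library (120.7 CPM) and the lowest being at 117.9 CPM. The 8 knockout libraries were above the Tln2-null mean on each of these scales. Leaving out 1 library at a time moved the log2 difference between 0.19 and 0.22.

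**Figure D1:**
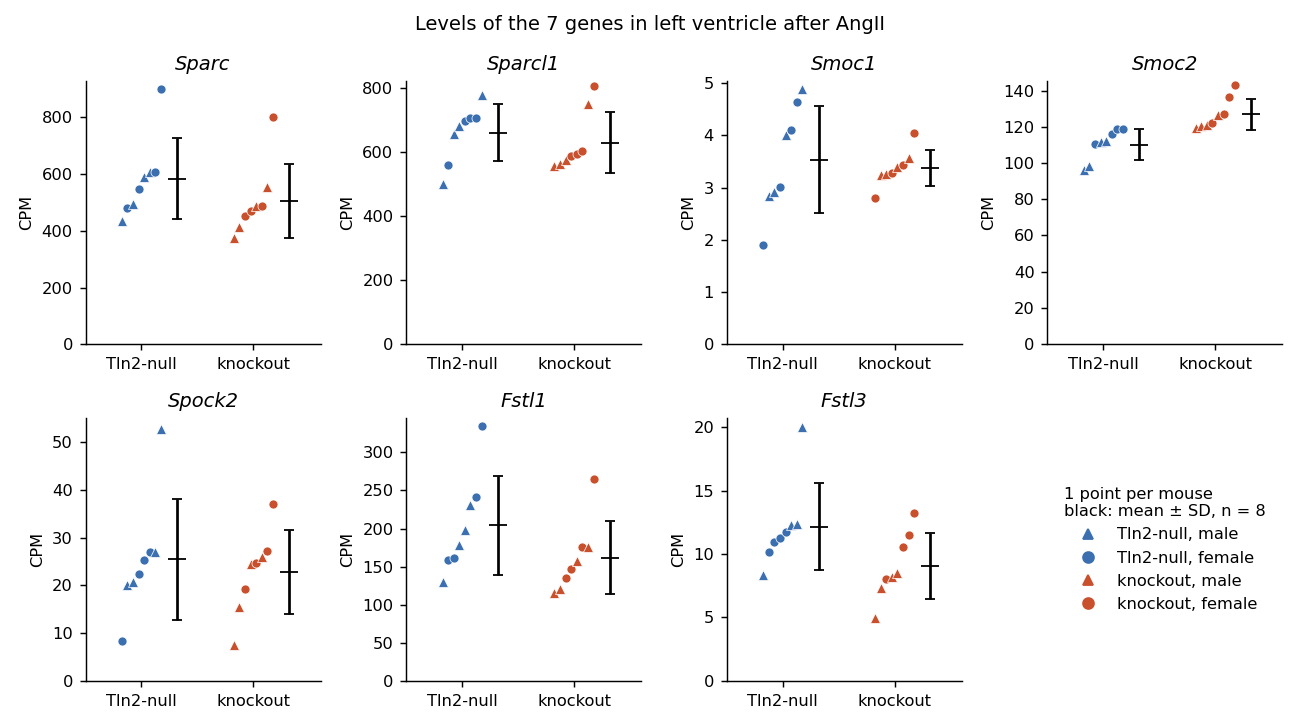
CPM (linear axes from 0) of the 7 genes in each mouse by genotype, with males as triangles and females as circles, and the mean ± SD of 8 mice in black. Smoc2 is the panel in which the 2 genotypes do not overlap, from 96.0 to 118.9 CPM against 119.5 to 142.9 CPM.

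Its relatives overlapped between the genotypes. Smoc1, at low counts, ran from 1.91 to 4.89 CPM with a median of 3.501 in Tln2-null and from 2.80 to 4.04 CPM with a median of 3.34 in knockout mice. All 8 knockout libraries lay inside the Tln2-null range, and the log2 difference was -0.07 ± 0.16 (SE). Sparcl1 ran from 499.5 to 779 CPM (median 691) in Tln2-null and from 556 to 808 CPM (median 590.1) in knockout mice, a log2 difference of -0.07 ± 0.10. The Sparcl1 ranges overlapped over most of their length.

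Sparc ran from 436 to 902 CPM with a median of 569 in Tln2-null mice. In knockout mice it ran from 375 to 803 CPM with a median of 479.5. In 7 of 8 knockout libraries Sparc was below the Tln2-null mean of 584 ± 143 CPM, and the groups overlapped. The log2 difference was -0.21 ± 0.14 (SE). It was 0.01 ± 0.14 without the 4 females carrying Y-linked reads, which leaves 1 knockout female, assumed to vary like the rest. That female is knockout replicate 2, the knockout library with the most Sparc (803 CPM). Among the 4 left out is Tln2-null replicate 4, the library with the most Sparc of all (902 CPM). Leaving out the highest library of a group gave -0.11 (Tln2-null replicate 4) or -0.31 (knockout replicate 2).

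Fstl1 ran from 130.3 to 334 CPM with a median of 188 in Tln2-null and from 115 to 266 CPM with a median of 152 in knockout mice. Its means were 204 ± 64.6 and 162 ± 47.9 CPM, and the log2 difference was -0.34 ± 0.17 (SE), with 7 of 8 knockout libraries below the Tln2-null mean. With Tln2-null replicate 4 left out it was -0.22, and without the 4 females carrying Y-linked reads it was -0.11. The latter fit also leaves out Tln2-null replicate 4 (334 CPM) and keeps knockout replicate 2 (266 CPM), the highest library of each group. Fstl3, the activin antagonist, ran from 8.33 to 19.98 CPM (median 11.5) in Tln2-null and from 4.93 to 13.2 CPM (median 8.34) in knockout mice. Its log2 difference was -0.44 ± 0.18, again with 7 of 8 knockout libraries below the Tln2-null mean and 4 of 8 below the lowest Tln2-null library. Without Tln2-null replicate 7, the highest, it was -0.29. Both groups overlapped for both genes.

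Spock2 ran from 8.27 to 52.8 CPM (median 23.8) in Tln2-null and from 7.5 to 37.0 CPM (median 24.6) in knockout mice. Its log2 difference of -0.16 ± 0.30 had no stable direction: it was 0.08 without Tln2-null replicate 1, 0.20 with the title number as a further term and 0.25 with 1 surrogate variable. For all genes together, edgeR's quasi-likelihood test with Benjamini-Hochberg adjustment called 0 of 13775 between the genotypes (0%), with 700 at an unadjusted p under 0.05. DESeq2 called 17 and limma-voom with quality weights called 11.

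Fibroblast markers mostly had lower values in knockout mice. The summed level of the 16 fibroblast markers was 3341 ± 466 CPM (range 2713 to 3966) in Tln2-null and 2709 ± 354 CPM (range 2288 to 3170) in knockout mice. Of the 15 tested, 13 were lower in knockout mice and 2 were higher (Abca8a and Scara5), with a median log2 difference of -0.32 and 0 called. The 14 markers of activated fibroblasts were all lower, with a median of -0.86 and 0 called, and their sum was 1389 ± 549 CPM against 914 ± 416 CPM. The 12 endothelial markers summed to 2285 ± 166 and 2307 ± 182 CPM. In bulk tissue, fewer cells of a type and less RNA per cell cannot be told apart.

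The next ratios restate the choice of Smoc2, since Dcn and Sparc had lower means in knockout mice, and add no evidence to it. Per 100 counts of Dcn (decorin, a fibroblast proteoglycan) there were 15.5 ± 2.36 counts of Smoc2 in Tln2-null and 20.3 ± 2.58 in knockout mice. Per 100 counts of Sparc there were 19.7 ± 4.27 and 26.2 ± 5.24. Both ratios overlapped between the groups. With the fibroblast score, the mean log2 CPM of the tested fibroblast markers, as a further term, the genotype difference was 0.46 ± 0.19 for Smoc1, 0.22 for Smoc2, 0.21 ± 0.18 for Fstl1 and 0.14 for Sparcl1 on the log2 scale. It was 0.06 ± 0.18 for Sparc, -0.08 for Fstl3 and -0.13 for Spock2. Smoc2 was thus not the highest of the 7 in that fit. That score itself differs between genotypes, so this fit splits a shared difference, and the part of fibroblast content in these values was not tested.

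Sex was balanced within each genotype and was not used to choose the genes. None of the 7 passed the test between males and females (edgeR, 12 of 13775 genes called, 0.0871%). Smoc2 ran from 96.0 to 126.3 CPM in males and from 110.3 to 142.9 CPM in females, and the sexes overlapped. The male minus female log2 difference of Smoc2 was -0.13 ± 0.05 (unadjusted p = 0.0117, adjusted p = 1). Females had the higher mean in each genotype, 115.9 ± 3.98 against 104.4 ± 8.59 CPM in Tln2-null and 132 ± 9.35 against 122 ± 3.10 CPM in the knockouts (SD, 4 mice each). Sparc and Fstl1 differed by -0.26 ± 0.14 and -0.31 ± 0.17 between the sexes (both adjusted p = 1 by edgeR).

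For Smoc2, the genotype difference in males minus that in females was 0.03 ± 0.10 on the log2 scale (SE, edgeR interaction, adjusted p = 0.996). Fstl3 was the member with the lowest p in that test. Tln2-null males had 13.2 ± 4.87 CPM of Fstl3 and knockout males 7.23 ± 1.62 CPM, and the females of these genotypes had 11.04 ± 0.667 and 10.8 ± 2.15 CPM (SD, 4 mice each). The interaction was -0.85 ± 0.32 on the log2 scale (unadjusted p = 0.0152, adjusted p = 0.98), so it did not pass. Without Tln2-null replicate 7, the male with the most Fstl3 (19.98 CPM), the Fstl3 interaction was -0.58. Spock2 had an interaction of -1.08 ± 0.55 (unadjusted p = 0.0645, adjusted p = 0.98). It was -0.67 without Tln2-null replicate 1 and -0.58 without the 2 libraries whose clock genes stood apart. No gene of the 13775 was called (0%), with 588 at an unadjusted p under 0.05 and 0 by DESeq2 and by limma-voom.

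**Figure D2:**
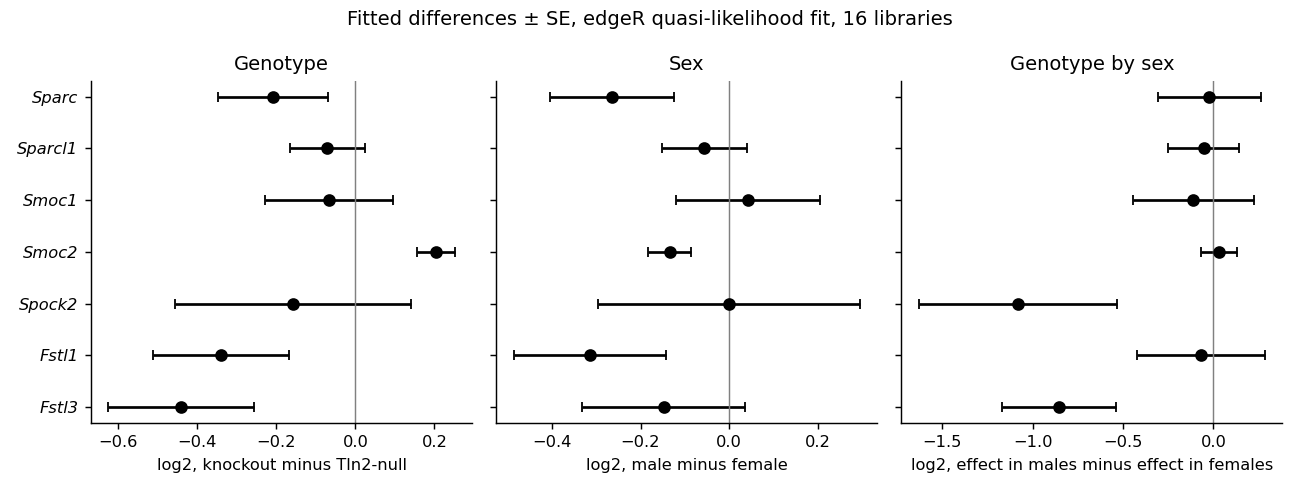
Log2 differences ± SE of the 7 genes from edgeR's quasi-likelihood fits over 16 libraries, for knockout minus Tln2-null, male minus female, and the genotype difference in males minus that in females. Smoc2 lies at 0.20 for genotype, and Fstl3 at -0.85 and Spock2 at -1.08 for the dependence on sex, none of the sex or interaction values passing the test.

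Between mice of the same genotype and sex, Fstl1 went with activated fibroblast transcripts. For each unit of the activated fibroblast score (mean log2 CPM of the 14 markers, among them Postn, Col1a1 and Comp), Fstl1 rose by 0.45 ± 0.06 on the log2 scale (SE, adjusted p = 0.000578 by edgeR's quasi-likelihood test). Its deviation had the sign of the score's in 15 of 16 libraries. In the same test 159 genes were called (1.15%). Leaving out 1 library at a time gave slopes from 0.40 to 0.51 with adjusted p from 0.000323 to 0.00593. Without the 4 females carrying Y-linked reads the slope was 0.35 (adjusted p = 0.0395).

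Sparc had a slope of 0.29 ± 0.07 on the activated score with the same sign in 13 of 16 libraries, and did not pass (edgeR, adjusted p = 0.0621). It passed in 2 of the 16 fits without 1 library. These were without Tln2-null replicate 3 (0.32, adjusted p = 0.0262) and without Tln2-null replicate 6 (0.32, adjusted p = 0.0451). The lowest of the 16 slopes was 0.23, without knockout replicate 2 (edgeR, adjusted p = 0.321). Without the 4 females carrying Y-linked reads the Sparc slope was 0.15 (adjusted p = 0.74). Smoc1 (0.32 ± 0.10, adjusted p = 0.154) and Fstl3 (0.23 ± 0.10, adjusted p = 0.361) had positive slopes that did not pass by edgeR. Smoc2 had a slope of -0.00 ± 0.04 (adjusted p = 0.99) and Spock2 one of 0.01 ± 0.21 (adjusted p = 0.995), the error of Smoc2 being the smallest of the 7.

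**Figure D3:**
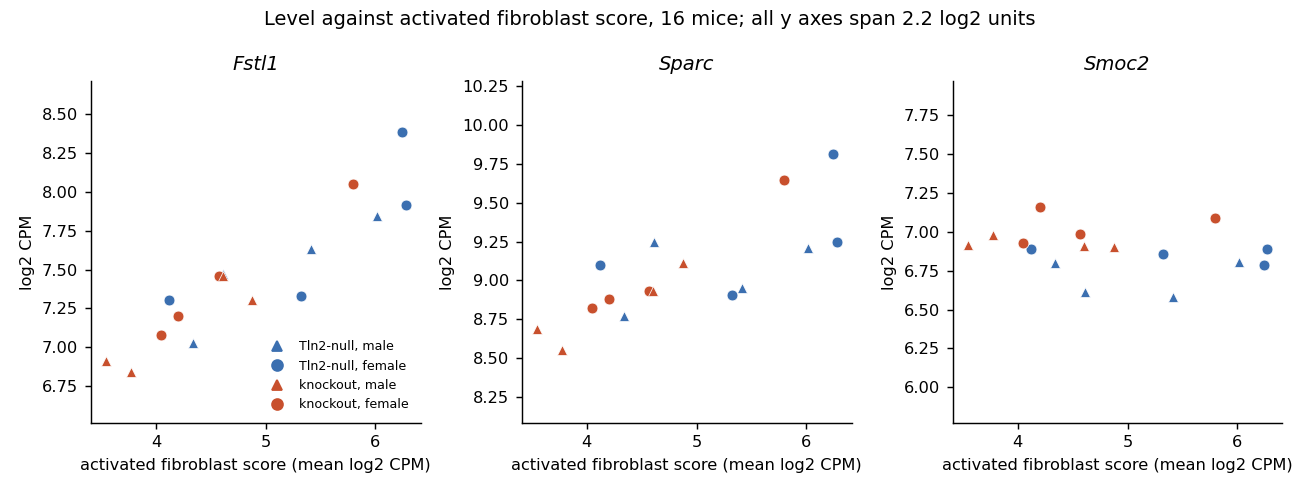
Log2 CPM of Fstl1, Sparc and Smoc2 in each of 16 mice against the activated fibroblast score, coloured by genotype and shaped by sex, with y axes of equal length. The slope within genotype and sex is 0.45 for Fstl1, which passed the test, 0.29 for Sparc and -0.00 for Smoc2, which did not.

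The score of general fibroblast markers, which correlated with the activated score (r = 0.86 over 16 libraries after removal of group means, a description), gave 61 called genes (0.443%). On it Fstl1 had a slope of 1.42 ± 0.34 (adjusted p = 0.0854) and Smoc1 one of 1.23 ± 0.36 (adjusted p = 0.202), and no member passed by edgeR. Without Cxcl14, Tcf21 and Fbln1, fibroblast markers among the lowest in knockout mice, the Fstl1 slope was 1.55 and passed (adjusted p = 0.0323). With the full list, none of the 16 fits that each left out a library passed for Fstl1. Their slopes ran from 1.09 to 1.59 (edgeR, adjusted p from 0.0762 to 0.66). The Fstl1 slope was 1.41 with DESeq2 size factors (adjusted p = 0.0913) and 1.32 with limma-voom (adjusted p = 0.214). Without the females carrying Y-linked reads it was 1.07. Over all 16 libraries Smoc2 had a slope of 0.05 ± 0.13 on this score (edgeR, adjusted p = 0.956).

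On the endothelial score, 464 genes were called (3.37%) and no member was. Sparc, which endothelium also makes, had a slope of 1.47 ± 0.53 (edgeR, adjusted p = 0.137), with 11 of 16 libraries of the same sign. That slope was 1.89 and passed without Tln2-null replicate 1 (adjusted p = 0.0492), and was 0.85 without knockout replicate 2 (adjusted p = 0.594). Sparcl1 had a slope of 0.38 ± 0.44 on the endothelial score (adjusted p = 0.661).

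**Figure D4:**
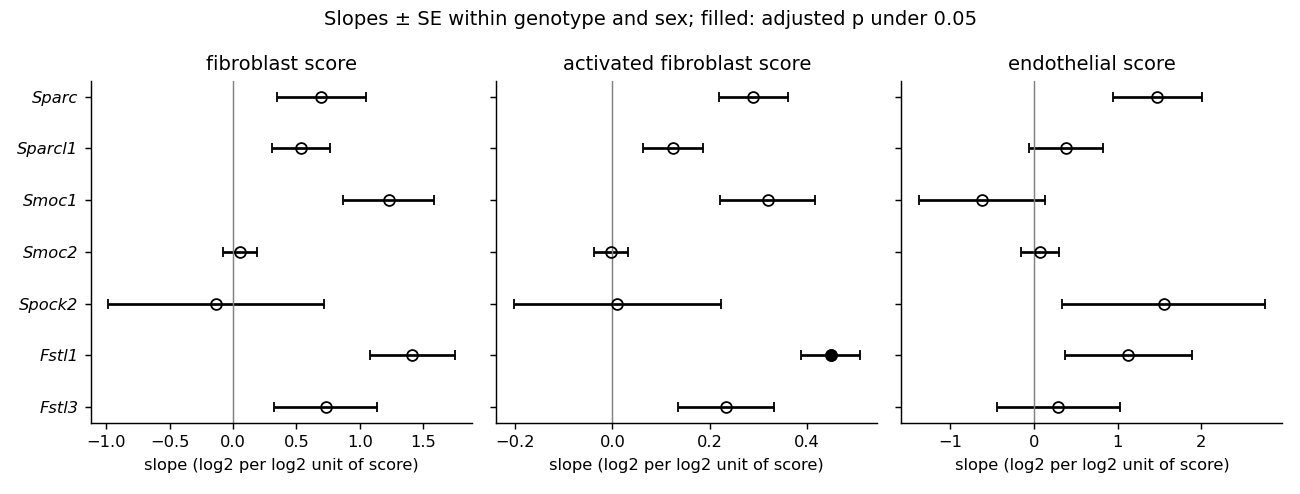
Slopes ± SE of the 7 genes on the fibroblast, activated fibroblast and endothelial marker scores within genotype and sex (log2 CPM per unit of score), filled where the adjusted p was under 0.05. Fstl1 on the activated fibroblast score (0.45 ± 0.06) is the one filled point.

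Of the 21 pairs of members, Sparc and Fstl1 had the highest correlation over all 16 libraries (0.899 after removal of the genotype and sex means). Within the Tln2-null group Pearson's r of their log2 CPM was 0.888 (exact permutation p = 0.00419, n = 8) and Spearman's rho was 0.833 (exact permutation p = 0.0154). Within the knockout group r was 0.944 (exact permutation p = 0.00149, n = 8) and rho was 0.905 (exact permutation p = 0.00456). Adjusted over the 42 tests of 21 pairs in 2 genotypes, r had p = 0.088 and p = 0.0625 and rho p = 0.215 and p = 0.192 by the exact permutation, so no pair passed. Without the 2 libraries farthest from the median of Sparc, r was 0.528 (exact permutation p = 0.256) in Tln2-null and 0.725 (exact permutation p = 0.113) in knockout mice. In each group these were the libraries with the most and the least Sparc, so the other 6 cover a narrower range. There r stayed positive, and 6 libraries over that range cannot decide whether the relation held.

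The most Sparc was in Tln2-null replicate 4, with 902 CPM of Sparc and 334 CPM of Fstl1, and in knockout replicate 2, with 803 and 266 CPM. Both had activated fibroblast scores above their group means. Fstl1 counts per 100 counts of Sparc were 34.7 ± 4.87 in Tln2-null and 31.8 ± 2.94 in knockout mice. For Smoc2 and Sparc, r was 0.02 in Tln2-null (exact permutation p = 0.962) and 0.348 in knockout mice (exact permutation p = 0.397, n = 8 each).

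The genes most like each member were ranked by Pearson's r of log2 CPM over the 16 libraries after removal of the genotype and sex means, among 12009 genes at 2 CPM or more. The libraries share these means, depth and handling, so r is a description. Nearest to Fstl1 were Col5a2 (0.977), Panx1 (0.945), Cd34 (0.939), Col1a2 (0.935) and Postn (0.935). Of these, Col5a2 and Col1a2 are fibrillar collagen chains and Postn is the matricellular protein periostin. Nearest to Sparc were Clic1 (0.935), Fxyd5 (0.932), Fabp5 (0.932), Tnfaip8l1 (0.928) and S100a11 (0.927). Fstl1 followed at 0.899, with 6 of 12009 genes (0.05%) closer to Sparc.

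Nearest to Smoc2 were Angptl4 (0.808), Hacd2 (0.80), Pqbp1 (0.766), Cpt1a (0.754) and Clk2 (0.734). Angptl4 is an inhibitor of lipoprotein lipase and Cpt1a carries fatty acids into mitochondria, and no collagen was among the 5. With Smoc2, 2 genes had r over 0.8, against 107 with Fstl1, 75 with Sparc and 126 with Spock2. Among the nearest to Sparcl1 were Reep3 (0.916), Cyth3 (0.914), Rbms1 (0.912) and Nsf (0.90). Smoc1 was nearest to Tbc1d2b (0.90), 1700025G04Rik (0.889), Pdgfrl (0.873), Lrrc17 (0.863) and Fchsd1 (0.861). Fstl3 was nearest to Itga9 (0.83), Plekha4 (0.807), Agfg1 (0.804), Fhl1 (0.798) and Wls (0.793).

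Spock2 had its closest likeness with Rab4a (0.944), Tbx5 (0.938), Cry2 (0.932), Ankrd9 (0.92) and Per2 (0.917). Cry2 and Per2 are repressors of the circadian clock, and Tbx5 is a cardiac transcription factor. Spock2 was lowest, at 8.27 and 7.5 CPM, in Tln2-null replicate 8 and knockout replicate 8, and ran from 15.6 to 52.8 CPM (median 25.0) in the other 14. Per2 was 12.2 and 10.2 CPM in those 2 libraries and 31.7 to 57.9 CPM in the other 14. Spock2 and Per2 were both highest in Tln2-null replicate 1.

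The labels end in numbers that run from 1 to 18, whose meaning is not given. Spock2 was the one member called for a change with that number. It fell by 0.91 ± 0.24 on the log2 scale per 10 numbers (SE, edgeR, adjusted p = 0.0343), in a test that called 874 genes (6.34%). Its deviation was opposite to that of the number in 13 of 16 libraries. The call was lost without Tln2-null replicate 1 (-0.70, adjusted p = 0.117), Tln2-null replicate 8 (-0.74, adjusted p = 0.0695), knockout replicate 3 (-0.84, adjusted p = 0.0562) or knockout replicate 8 (-0.76, adjusted p = 0.0923). Without both libraries whose clock genes stood apart, which carry numbers 14 and 18, the term was -0.57 (adjusted p = 0.149). With the numbers in sets of 4 as a factor, Spock2 was not called either (adjusted p = 0.214). Smoc2 had a term of -0.02 ± 0.05 (adjusted p = 0.858).

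**Figure D5:**
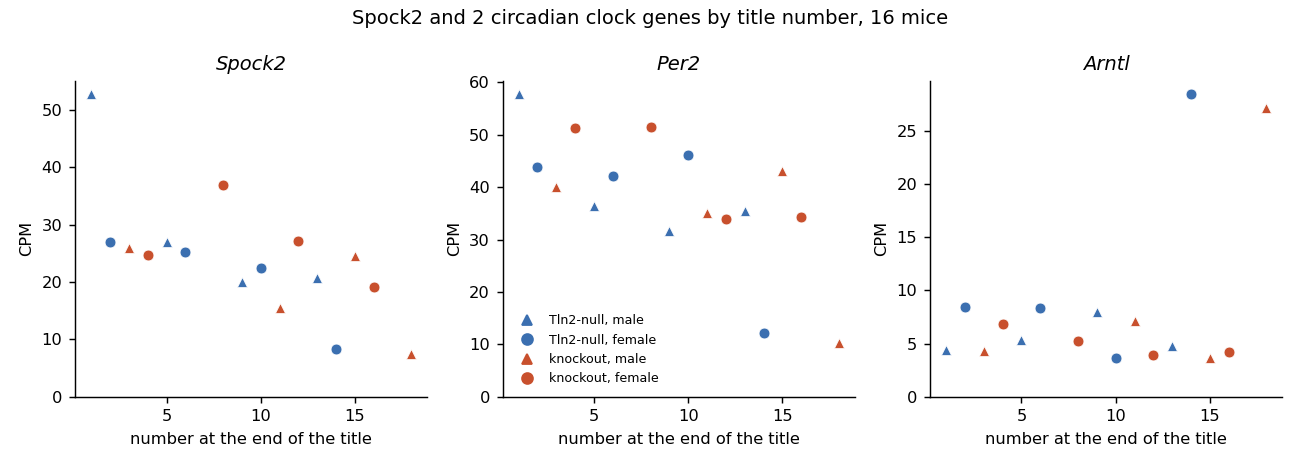
CPM (linear axes from 0) of Spock2 and of the clock genes Per2 and Arntl in each of 16 mice against the number at the end of the title. The 2 libraries lowest in Spock2 (8.27 and 7.5 CPM) are those with Arntl at 28.4 and 27.1 CPM.

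The proteins that SPARC family members bind or handle were taken as a list of 20 genes. In knockout mice 19 were lower and 1 (Itgb1, 0.02 ± 0.04) was higher, with a median log2 difference of -0.14 against -0.00 for all genes. No gene of the list passed (edgeR, 4 at an unadjusted p under 0.05). Lowest in p were the collagen chains Col1a1, with 146 ± 39.5 against 97.9 ± 40.1 CPM (-0.57 ± 0.21, adjusted p = 0.823), and Col1a2 (-0.43 ± 0.18, adjusted p = 0.926), then the membrane protease Mmp14 (-0.38 ± 0.17, adjusted p = 0.935). Within groups, 18 of the 20 had positive slopes on the activated fibroblast score. By edgeR 5 of the 20 were called higher, in the test that called 159 of 13775 genes (1.15%). Of these, Col1a1, Col1a2 and Col5a1 are part of that score, and Col5a2 (0.46 ± 0.05, adjusted p = 7.46e-05) and the gelatinase Mmp2 (0.41 ± 0.04, adjusted p = 3.71e-05) are not. On the endothelial score 19 of the 20 had positive slopes. Of the 20, 4 were called higher (Col4a1, Col4a2, Pdgfb and Itgb3), where 464 of 13775 genes were called (3.37%).

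Of 6 other family genes, none passed the test between genotypes. Spock1, Spock3 and Fstl5 did not pass the filter. Of the 3 others, Fstl4 had 6.28 ± 1.52 CPM in Tln2-null hearts and 7.83 ± 2.09 CPM in knockout hearts (0.31 ± 0.16, edgeR adjusted p = 0.935). The basement membrane proteoglycan agrin (Agrn) was 95.9 ± 14.1 and 92.9 ± 14.2 CPM (-0.05 ± 0.10, adjusted p = 0.975). Fst, follistatin itself, was below 1 CPM on average in both groups. All 3 had positive slopes on the activated fibroblast score, and Fst was the one called (1.02 ± 0.16, edgeR adjusted p = 0.00303).

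Among the 13 tested activin and BMP ligands, 9 were lower and 4 higher in knockout mice (median log2 difference -0.04, 0 called). Lowest in p were the activin subunit Inhbb (-0.32 ± 0.13, adjusted p = 0.925), Bmp5 (0.35 ± 0.16, adjusted p = 0.935) and Gdf6 (-0.50 ± 0.25, adjusted p = 0.935), by edgeR. Of the 15 receptors and SMADs tested, 8 were higher and 7 lower (median 0.01, 0 called). Smad1, a BMP transducer, was lowest in p (-0.15 ± 0.09, adjusted p = 0.935 by edgeR), followed by the receptors Acvr1 (-0.12 ± 0.08, adjusted p = 0.935) and Acvr2b (0.15 ± 0.11, adjusted p = 0.941).

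Of 13 tested BMP and SMAD targets and other BMP antagonists, 11 were lower and 2 higher in knockout mice, with a median log2 difference of -0.12 and 0 called. Id2, an inhibitor of basic helix-loop-helix factors that BMP induces, had 11.3 ± 1.74 CPM in Tln2-null hearts and 8.18 ± 1.61 CPM in knockout hearts (-0.47 ± 0.12, edgeR adjusted p = 0.375). Its relatives Id3 (-0.31 ± 0.11, adjusted p = 0.833) and Id1 (-0.17 ± 0.13, adjusted p = 0.942) came next among genes at 1 CPM or more. On the title number, 10 of the 13 had negative terms (median -0.24 per 10 numbers). By edgeR 4 were called lower, where 874 of 13775 genes were called (6.34%). The genotype values of this list are not adjusted for that number. These 4 lists and the partner list were drawn up with earlier results of these data known, and their counts are descriptions.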

How the data were processed

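Left ventricular total RNA from 16 mice was sequenced, 1 library per mouse. The deposited table holds whole counts per gene symbol. A second deposited table holds a signal, the same counts divided by 1 size factor per library, for 16405 genes. DRAGEN, DESeq2 and mm10 stand in the submitters' processing notes without roles or versions. The kit was directional, per the labels' protocols. The sources used here do not say whether the counting used strand.

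Groups and sex came from the labels, and replicates were numbered in record order, which pairs nothing. Members and lists were chosen with earlier results of these data known. Tests used edgeR 4.0.16 (R 4.3.3): filterByExpr by genotype and sex, TMM, the quasi-likelihood test with genotype and sex as terms, or 1 mean per genotype and sex for interactions and slopes, and Benjamini-Hochberg adjustment over 13775 genes with calls under 0.05. The SE is the log2 difference over the square root of F. Scores are means of log2 CPM (prior count 0.5) centred within genotype and sex. CPM are TMM-scaled. The fits were tested on simulated data. Pairs were tested by exact two-sided permutation. Named were the 7 members, from each context list the 3 genes with the smallest genotype p and a mean of at least 1 CPM, and the 5 genes most like each member; some results are not reported here. Alternatives used DESeq2 1.42.0, limma 3.58.1 and sva 3.50.0. A count of 0 allows up to 3 counts in a library, for counting error only.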

Additional observations from a re-analysis of the deposited data

Results flagged for a closer look

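In 5 of the 14 groups of 8 libraries formed by the 7 genes and 2 genotypes, 1 library lay far from the others by Dixon's gap test. The gaps were taken on CPM rather than log2 CPM, and all 5 were on the high side. Chance gives about 1 such group in 20 for normally distributed values, which was not tested for CPM. The 14 groups also share libraries. Sparc was 902.1 CPM in Tln2-null replicate 4, where the next highest was 608.9 CPM, and 803.1 CPM in knockout replicate 2, where the next was 553.4 CPM. Fstl1 was 265.6 CPM in that same knockout replicate 2, where the next was 176.3 CPM. Spock2 was 52.79 CPM in Tln2-null replicate 1, where the next was 26.97 CPM. Fstl3 was 19.98 CPM in Tln2-null replicate 7, where the next was 12.35 CPM.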

How the results depend on the processing

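No paired analysis was possible because the labels give no replicate numbers that the genotypes share. The genotype difference of Smoc2 kept its direction in all 16 fits without 1 library (0.1853 to 0.2248) and in 12 other settings (0.202 to 0.2225). Smoc2 was chosen for this difference and its groups did not overlap, so the kept direction adds no evidence for it. With the fibroblast score as a further term, the genotype difference of Fstl1 was 0.2146, that of Sparc 0.0565, that of Smoc1 0.4556 (from -0.0672) and that of Fstl3 -0.0764 (from -0.4406), and without the females carrying Y-linked reads that of Sparc was 0.0068. The score is correlated with genotype in the first case and 4 libraries are lost in the second. Among those 4 is Tln2-null replicate 4, the highest in Sparc, while knockout replicate 2, the next highest, stays. Beyond that, the cause was not tested.

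Counts of called genes moved more. Between genotypes the count was 17 with DESeq2 (3 higher and 14 lower), 11 with limma-voom, 1 with no filter on low counts, 5 without the 2 libraries with clock genes apart, and 0 to 7 without 1 library, the highest without knockout replicate 8. Between sexes it was 21 with DESeq2 and 10 to 14 without 1 library, and for the dependence on sex it was 0 without any 1 library. On the activated fibroblast score it was 64 without the females carrying Y-linked reads and 88 to 164 without 1 library, lowest without knockout replicate 2. On the fibroblast score it was 38 with limma-voom, 96 with the shorter marker list, 0 without the females carrying Y-linked reads, and 0 to 71 without 1 library, among them 0 without Tln2-null replicate 1. On the endothelial score it was 18 to 641 without 1 library, lowest without knockout replicate 2. For the title number it was 216 with the number in sets of 4, 187 without the clock libraries and 229 to 1162 without 1 library, lowest without knockout replicate 8. The clock library setting for the title number, the alternatives for the activated score and the scaling check of Smoc2 were added after the data were seen. At this depth Smoc1, with about 3 CPM, had an SE of 0.16 on the log2 scale between genotypes, against 0.05 for Smoc2.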

Other observations

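Markers of other cell types between the genotypes, all with 0 genes called by edgeR, were as follows. Of 12 cardiomyocyte markers 11 were higher in knockout mice, with a median log2 difference of 0.07. Of 12 pericyte and smooth muscle markers 9 were lower (median -0.12). Of 10 macrophage markers 6 were higher (median 0.02), and their sums were 302 ± 23.2 and 299 ± 27.5 CPM. The endothelial markers split evenly, 6 and 6 (median 0.00). Of the tested lymphocyte markers 4 of 5 were higher (median 0.34) and of the atrial markers 3 of 4 were lower (median -0.37), Nppa leading their sum. Of the conduction system markers 5 of 7 were lower (median -0.20) and of the Schwann and glial markers 4 of 5 were lower (median -0.43). Both tested adipocyte markers (median 0.31) and the 1 tested epicardial and mesothelial marker (0.03) were higher.

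Angptl4, the gene most like Smoc2 between mice of 1 group, varied too much for its genotype difference to be set against that of Smoc2. It ran from 5.16 to 51.9 CPM (median 7.815) in Tln2-null hearts and from 4.79 to 24.3 CPM (median 10.91) in knockout mice. Its log2 difference was -0.07 ± 0.48 (SE). Cpt1a, also near to Smoc2, was 75.0 ± 16.8 and 76.3 ± 10.7 CPM.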
